A study of Mus musculus with 4 samples.

Results

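Absorptive enterocytes carry nutrients from the gut lumen into the body, and 9 genes of that task were followed here in single cells of the mouse small intestinal epithelium: Fabp1, Fabp2, Fabp6, Apoa1, Apoa4, Rbp2, Sis, Alpi and Slc10a2. They were chosen by name, all 9 were among the 27998 genes counted, and all had counts in each of the 4 libraries. The libraries came from live EpCAM positive, CD45 negative cells sorted from small intestinal crypts of 8-week-old mice, 2 of them with the label Slc7a5 fl/fl and 2 with the label Slc7a5 IEC-KO (hereafter the fl/fl and the IEC-KO libraries), and were made with the 10x Genomics 3′ kit, version 2. Every mouse carried the floxed Slc7a5 allele, which codes for a large neutral amino acid transporter (LAT1), and in the Slc7a5 IEC-KO mice Cre under the villin promoter removed exon 1 in intestinal epithelial cells. The sources name 4 mice and do not tie them to libraries, so p-values measure only the spread between these samples. The labels name the small intestine and no segment of it.

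An enterocyte takes up the products of digestion at its brush border and passes them to the blood or, as chylomicrons, to the lymph. The task is divided along the gut: the proximal small intestine absorbs most fat, sugar and retinol, and the ileum takes back bile acids. In the ileal enterocyte the sodium-dependent transporter Slc10a2 (ASBT) brings bile acids in, Fabp6 (the ileal bile acid binding protein) carries them through the cytosol, and the Slc51a and Slc51b pair (OST alpha and beta) lets them out. In the proximal enterocyte Fabp1 (liver type) and Fabp2 (intestinal type) bind long chain fatty acids, Apoa1 and Apoa4 are apolipoproteins of chylomicrons and HDL, and Rbp2 binds retinol. Sis (sucrase-isomaltase) splits sucrose and the ends of starch on the brush border, and Alpi is the intestinal alkaline phosphatase.

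The genes lie on 6 chromosomes of the GRCm38 build, in the GENCODE M21 annotation. Apoa1 (chr9:46228580-46230466, plus strand) and Apoa4 (chr9:46240696-46243459, plus strand) are neighbours, with Apoc3 between them, and Rbp2 (chr9:98486115-98509781, plus strand) is on the same chromosome. Fabp2 (chr3:122895072-122899506, plus strand) and Sis (chr3:72888557-72967863, minus strand) share chromosome 3. Fabp1 is at chr6:71199827-71205023 on the plus strand, Fabp6 at chr11:43596049-43601540 on the minus strand, Alpi at chr1:87098002-87101606 on the minus strand and Slc10a2 at chr8:5083219-5105351 on the minus strand. The counts come from 3′ ends, so a UMI (unique molecular identifier, which stands for 1 captured transcript) is read from the end of the transcript and not from the promoter.

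The 250 bases before the RefSeq start of 2 members that marked proximal cells and of the 2 that marked ileal cells are shown, because these 4 genes are part of the rule that divided the enterocytes into types. The sequences are those of RefSeq on GRCm38.p6, read 5′ to 3′ on the strand of the gene: Fabp1 at chr6:71199629-71199878 and Rbp2 at chr9:98490287-98490536 on the plus strand, and Fabp6 at chr11:43601563-43601812 and Slc10a2 at chr8:5105288-5105537 on the minus strand. The RefSeq start differs from the GENCODE gene start in each of these 4 genes. Capitals mark every match, on either strand, to the letters CAAAGTNCA for HNF4, TTTATNG for CDX, NGATAA for GATA factors, GTTAATNAT for HNF1, GTCANTGAC for the FXR inverted repeat or TATAAA for the TATA box, with N for any base.
Fabp1: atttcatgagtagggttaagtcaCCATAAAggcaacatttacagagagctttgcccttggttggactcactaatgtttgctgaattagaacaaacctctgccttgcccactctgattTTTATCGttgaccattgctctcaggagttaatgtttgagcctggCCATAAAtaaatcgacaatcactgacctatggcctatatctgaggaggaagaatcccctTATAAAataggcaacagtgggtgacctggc
Rbp2: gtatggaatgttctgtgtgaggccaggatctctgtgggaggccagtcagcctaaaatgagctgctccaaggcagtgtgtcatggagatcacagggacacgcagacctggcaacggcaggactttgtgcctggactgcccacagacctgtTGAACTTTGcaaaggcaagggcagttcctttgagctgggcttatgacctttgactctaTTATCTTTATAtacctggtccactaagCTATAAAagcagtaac
Fabp6: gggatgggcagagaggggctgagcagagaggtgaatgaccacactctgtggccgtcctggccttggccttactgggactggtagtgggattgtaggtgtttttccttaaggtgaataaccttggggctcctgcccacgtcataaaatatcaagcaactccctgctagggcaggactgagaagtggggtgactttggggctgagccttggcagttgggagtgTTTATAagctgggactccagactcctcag
Slc10a2: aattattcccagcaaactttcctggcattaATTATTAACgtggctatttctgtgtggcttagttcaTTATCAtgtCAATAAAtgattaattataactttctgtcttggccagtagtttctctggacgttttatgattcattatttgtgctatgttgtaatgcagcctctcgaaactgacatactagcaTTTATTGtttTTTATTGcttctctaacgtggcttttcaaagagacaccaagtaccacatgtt

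Each match is a description of these letters and not a site of binding. The CDX letters stood in 6 of the 9 members (Alpi, Fabp1, Fabp2, Rbp2, Sis and Slc10a2) and in 9.81% of 32851 promoters of this length. The HNF4 letters stood in 4 members (Alpi, Apoa4, Fabp2 and Rbp2) and in 1.19% of promoters, and the GATA letters in 3 members (Fabp1, Rbp2 and Slc10a2) and in 22.5%. The HNF1 letters were found in Slc10a2 alone among the members and in 0.737% of promoters. No member held the FXR letters, which 0.320% of promoters held. The TATA letters stood in 5 members (Alpi, Fabp1, Fabp6, Rbp2 and Sis) and in 12.4% of promoters. In Fabp1 a GATA match overlapped a CDX match 127 to 133 bases before the start, in Rbp2 the GATA match overlapped a TATA match and a CDX match overlapped another TATA match, and in Fabp6 the TATA letters, 24 to 29 bases before the start, were the only match.

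Enterocytes were defined as cells in which symbols starting with Defa (alpha-defensins, the Paneth cell antimicrobial peptides) held under 20% of UMIs and the 9 members together at least 1%. There were 874 such cells among 26498 barcodes: 145, 117, 336 and 276. Values for the libraries are given throughout in the order fl/fl replicate 1, fl/fl replicate 2, IEC-KO replicate 1 and IEC-KO replicate 2. These cells were 3.99, 3.64, 3.36 and 2.86% of the barcodes. Of the 20 enterocyte markers that took no part in the rule, 19 were found in at least 25% of the 874 cells at 1.5 times or more their mean in other cells, and Mep1a had a UMI in 20.7% of them. Clusters built without the members placed 816 of the 874 cells (93.4%) in 1 cluster that its markers named enterocyte-like (cluster 10). Of the rest, 33 were in the other enterocyte-like cluster (cluster 12), 16 in a cluster of transit amplifying cells (cluster 8) and 9 elsewhere. Near the limit, 161 of the cells had members at 1 to 1.5% of UMIs, and 129 cells outside it had 0.75 to 1%.

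The libraries differed in depth and makeup in ways that touch these cells. They held 3633, 3217, 10004 and 9644 barcodes with 87922473 to 127094508 UMIs in all, and no barcode had fewer than 8909, 9670, 3843 and 5858 UMIs. The median enterocyte held 10650, 11247, 5384 and 7387 UMIs, and 28.9 to 65.0% of the enterocytes lay within 25% of the lowest total of their library. From 14 to 132 barcodes were shared by 2 libraries. Alpha-defensins took 59.2, 63.0, 29.0 and 32.4% of all UMIs. Markers of Paneth cells summed to 47589 to 78915 UMIs per 1000000 UMIs (CPM) in enterocytes, and those of immune and blood cells to 0.49 to 2.39 CPM. Slc7a5 gave 140, 128, 350 and 615 UMIs (1.23, 1.07, 3.98 and 4.84 CPM), and since 3′ tags lie outside exon 1 this checks nothing about the deletion.

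In the enterocytes Fabp1, Apoa1, Rbp2 and Fabp6 were the most counted members. Fabp1 reached 8784, 11039, 11576 and 9635 CPM, with means of 9912 ± 1595 (fl/fl) and 10606 ± 1373 (IEC-KO, SD, n = 2 each). Apoa1 stood at 9025, 8814, 9219 and 8434 CPM and Rbp2 at 6462, 7489, 7965 and 7083 CPM. The genotypes overlapped for all 3 genes. Counts from 3′ ends do not grow with transcript length, but the share of transcripts captured can differ between genes, so the order of genes is that of counts and not of molecules in the cell.

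Fabp2 was at 3299, 3325, 3615 and 3517 CPM and Apoa4 at 1046, 1057, 1122 and 971 CPM. Both IEC-KO libraries lay above both fl/fl libraries for Fabp2, and for Apoa4 they lay on either side. Among the enzymes of the brush border Sis had 682, 622, 481 and 453 CPM, with the genotypes apart, and Alpi 83.8, 104, 114 and 114 CPM. The bile acid carrier Fabp6 was at 7603, 6810, 6216 and 6393 CPM, again with the genotypes apart, and its partner Slc10a2 at 13.2, 10.2, 8.85 and 11.5 CPM, from 82 UMIs in all 874 cells. The genotypes did not overlap for Alpi either. The share of all genes that did not overlap in enterocytes was not counted, so these orders are a description only. How these differences compare with the spread between libraries is tested further on.

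The enterocytes divided by which of these genes they held. A cell was taken as ileal-type where Fabp6 and Slc10a2 made up at least 50% of its UMIs of Fabp6, Slc10a2, Fabp1, Apoa1, Apoa4 and Rbp2, and as proximal-type where they made up under 10%. Of the 874 cells 648 were proximal-type, 210 ileal-type and 16 between. Few cells lay near the limits: 642 had a share under 5% and 6 a share of 5 to 10%, while 46 had 50 to 90% and 164 had 90% or more. The distribution thus had 2 heaps with 10 cells at 40 to 60%. Of the ileal-type cells 175 were in cluster 10 and 17 in cluster 12, and of the proximal-type cells 625 were in cluster 10, so both types lay in the same cluster of cells grouped without the members. The types held like totals within a library, with median UMIs of 11380, 11174, 5726 and 7353 in ileal-type and 10288, 11287, 5303 and 7435 in proximal-type cells.

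**Figure D1:**
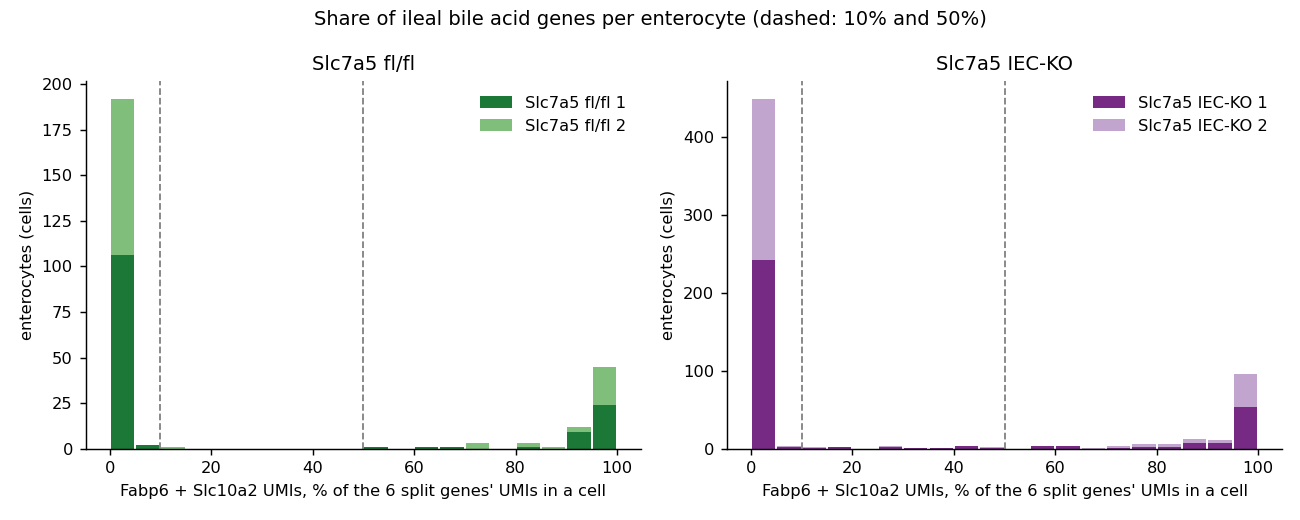
Number of enterocytes (vertical axis) by the percent of their Fabp6, Slc10a2, Fabp1, Apoa1, Apoa4 and Rbp2 UMIs that came from Fabp6 and Slc10a2 (horizontal axis), 1 panel per genotype with the libraries stacked. Cells gather at under 5% (642 of 874) and at 90% or more (164), and the dashed lines mark the limits of 10 and 50%.

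The share of ileal-type cells was 25.5% (37 of 145, 95% exact binomial interval 18.6 to 33.4), 25.6% (30 of 117, 18.0 to 34.5), 23.8% (80 of 336, 19.4 to 28.7) and 22.8% (63 of 276, 18.0 to 28.2). These intervals cover counting error only. Both IEC-KO libraries lay below both fl/fl libraries by a mean of 2.26 percentage points (23.3 ± 0.70 against 25.6 ± 0.09, SD, n = 2), within the counting interval of each library. The two-sided exact permutation test gave p = 0.333, the smallest it can give with 2 libraries against 2. Over the cells of the enterocyte-like clusters, taken in place of the rule, the difference was 3.69 percentage points in the other direction.

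Between the types the 6 genes of the split are a description, since they chose the cells. Fabp6 stood at 28237, 26288, 24072 and 26108 CPM in ileal-type cells against 172, 133, 95.6 and 158 CPM in proximal-type cells. Fabp1 showed the reverse, with 172, 214, 158 and 178 CPM in ileal-type and 11886, 14639, 15881 and 12800 CPM in proximal-type cells. Rbp2 had 253, 154, 166 and 238 CPM against 8698, 9898, 10825 and 9350 CPM. The levels of Fabp1 and Rbp2 in ileal-type cells, and of Fabp6 in proximal-type cells, were of the same order as those in Paneth-like cells, given further on. They were not equal, and Fabp6 was lower in proximal-type than in Paneth-like cells in each library.

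The apolipoproteins separated less far. Apoa1 kept 1519, 956, 1484 and 1595 CPM in ileal-type cells against 11728, 11236, 11618 and 10397 CPM in proximal-type cells. Its level among ileal-type cells was uneven, with a median of 279 CPM, an upper quartile of 1433 CPM and a 95th percentile of 8604 CPM over the 210 cells. Apoa4 stood at 49.7, 54.1, 70.9 and 45.4 CPM against 1404, 1347, 1520 and 1282 CPM. In both genes all ileal-type sums lay under all proximal-type sums. Slc10a2 was sparse, with 68 UMIs in ileal-type and 4 in proximal-type cells, and 38 of 210 ileal-type against 3 of 648 proximal-type cells had a UMI of it.

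Fabp2, Sis and Alpi took no part in the split into types, but they were counted in the member sum that chose the enterocytes. The p-values for them therefore describe cells chosen in part by these genes. All 3 were lower in ileal-type cells in each library. Fabp2 stood at 784, 550, 545 and 519 CPM in ileal-type and 4204, 4109, 4561 and 4295 CPM in proximal-type cells, a fall of 2.89 ± 0.08 (SE) on the log2 scale or 7.43 times (edgeR quasi-likelihood test on sums per library and type with library as a block, Benjamini-Hochberg adjusted p = 1.12e-22). Sis stood at 122, 116, 105 and 138 CPM against 883, 804, 608 and 558 CPM, and fell by 2.56 ± 0.11, or 5.90 times (edgeR adjusted p = 5.76e-18). Alpi had 15.8, 10.8, 8.11 and 16.3 CPM against 108, 133, 151 and 146 CPM and fell by 3.41 ± 0.21, or 10.7 times (edgeR adjusted p = 4.63e-14). A UMI of Sis was found in 53.8% of ileal-type and 92.9% of proximal-type cells, and one of Alpi in 10.5 and 55.6%. Of 5507 other genes tested 28.1% passed in either direction, 13.6% higher and 14.6% lower, so a fall in itself was common, and the cells compared were grouped by genes measured in those same cells. All 3 falls passed in each of 8 alternatives. These included the split of cells from the enterocyte-like clusters, which were built without the members.

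**Figure D2:**
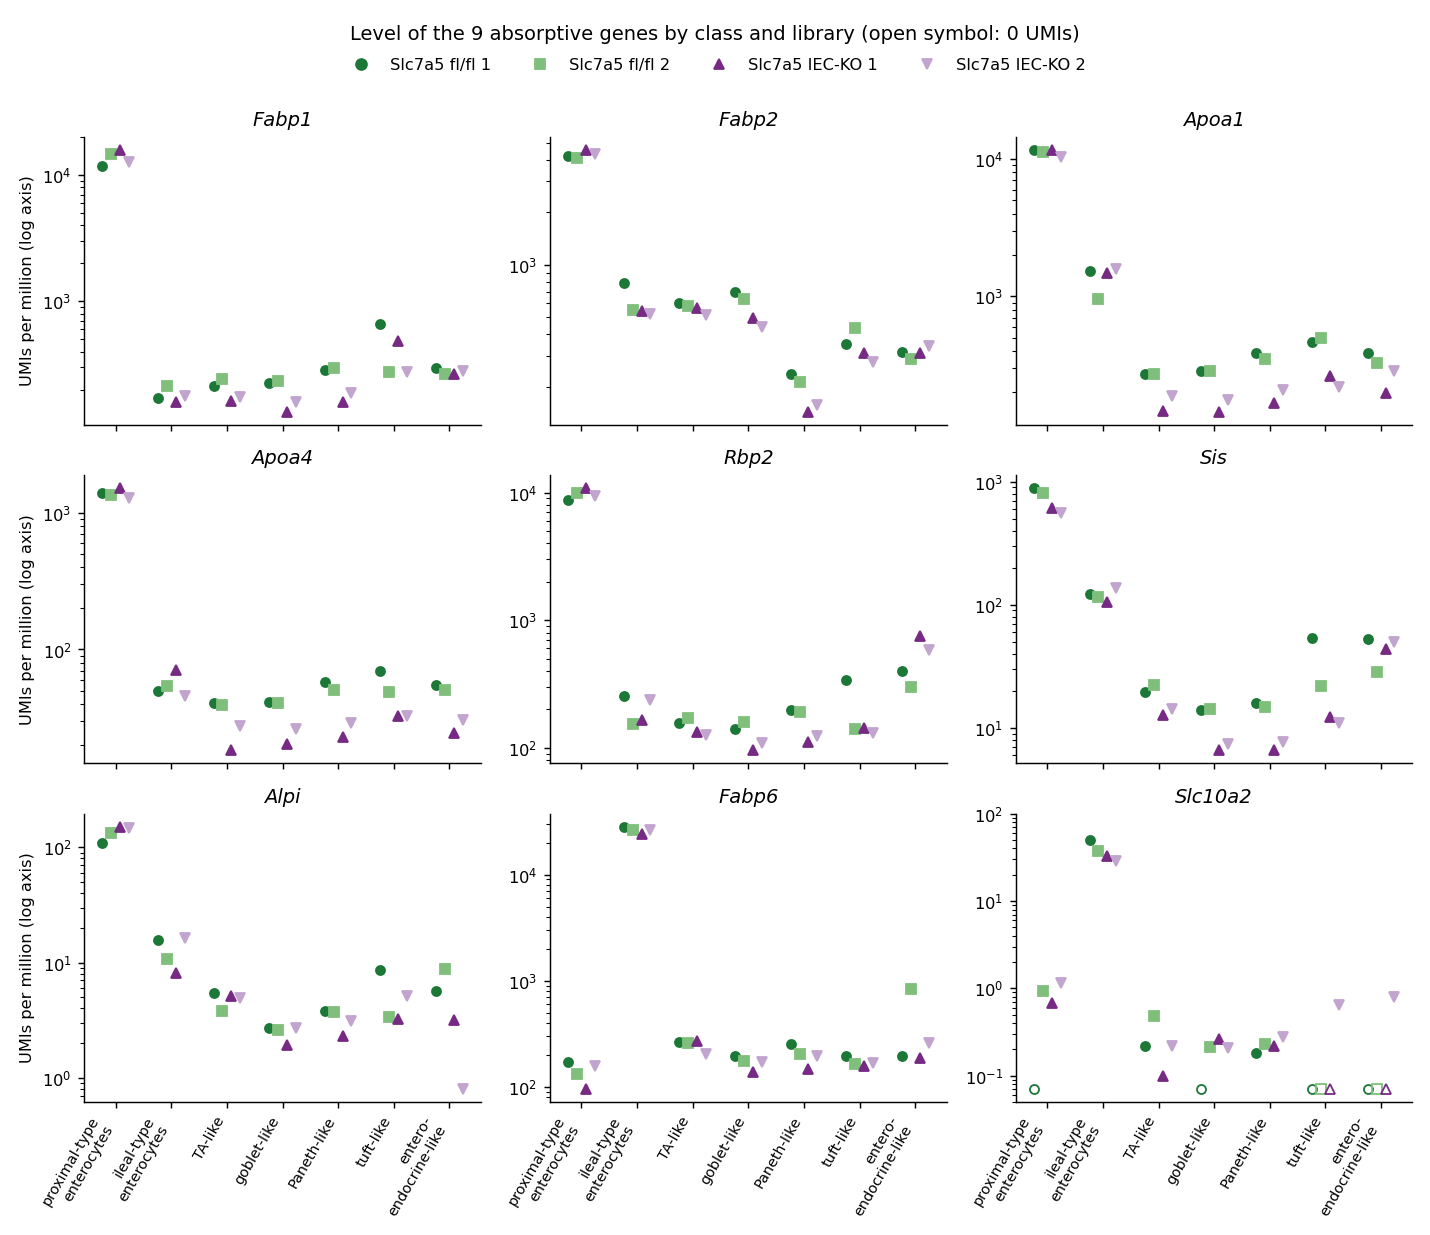
Level of each of the 9 members (CPM, log axis, 1 panel per gene) in proximal-type and ileal-type enterocytes and in TA-like, goblet-like, Paneth-like, tuft-like and enteroendocrine-like cells, 1 symbol per library, with open symbols where a library had 0 UMIs. Fabp1 reaches 11886 CPM or more in proximal-type cells and at most 214 CPM in ileal-type cells. Fabp6 reaches 24072 CPM or more in ileal-type cells and at most 172 CPM in proximal-type cells. TA-like, goblet-like and Paneth-like cells lie far under the higher of these levels, with Fabp6 at up to 271 CPM in TA-like cells.

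Other genes of the same pathways, from lists chosen for this tissue, divided along the same line. In the bile acid circuit of the ileum 3 of 3 genes tested were higher in ileal-type cells: Slc51b by 1.64 (177 ± 12 against 569 ± 72.1 CPM, SD, n = 4), Slc51a by 1.33 (181 ± 14.1 against 468 ± 11.3 CPM) and Nr1h4, which codes for the bile acid receptor FXR, by 1.60 on the log2 scale. Of the 14 genes tested for lipid uptake and chylomicron assembly 13 were lower and Abcg5, a sterol exporter, was not called (-0.25). The lower genes included Creb3l3, a transcription factor of lipid metabolism (-5.30), Apoc3 (-4.19), Mttp, which loads lipid on apolipoprotein B (-2.21), and Apob itself (-2.11).

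All 6 genes of sugar transport and fructose handling were lower in ileal-type cells, among them the fructose transporter Slc2a5 (-3.51), ketohexokinase Khk (-2.85) and the glucose transporter Slc5a1 (-2.05). The values of Slc2a5 and of the basolateral glucose transporter Slc2a2 rested on 3 and 4 UMIs in ileal-type cells. Among brush border disaccharidases and peptidases 9 of 14 were lower, such as lactase Lct (-4.48) and neprilysin Mme (-4.78), which rested on 10 and 5 UMIs in ileal-type cells, and 2 were higher, the meprin subunit Mep1a (1.87) and Naaladl1 (1.22). In retinoid handling Rdh7 (-3.72, 12 UMIs in ileal-type cells) and Retsat (-1.61) were lower, and Isx was not called (0.28). Of 10 amino acid and peptide transporters 6 were lower and Slc1a1, the glutamate transporter, was higher (1.78). Of 5 vitamin and mineral genes 3 were lower, such as the calcium binding protein S100g (-3.26), and the iron exporter Slc40a1 was higher (1.88). Of 7 transcription factors Cdx1 (0.84), Klf4 (0.58) and Cdx2 (0.39) were higher and Maf (-0.89) and Hnf4g (-0.50) were lower.

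Genes listed as marks of the proximal gut were lower in ileal-type cells in 23 of 23 cases tested, with a median of -3.72 on the log2 scale against 0.02 over all genes tested. Genes listed as marks of the distal gut were mixed: of 20 tested 7 were higher, 3 were lower and 10 were not called, with a median of 0.09. Those higher included Tmigd1 (3.94), Mep1a, Slc51b and Slc51a, and those lower were Maf (-0.89), Enpep (-0.61) and Amn (-0.46). The 20 enterocyte markers summed to 57077 to 81743 CPM in ileal-type and 37176 to 42928 CPM in proximal-type cells. Over all enterocytes the sum was led by Reg3b and Reg3g, and single markers such as Apoc3, Gsta1, Mttp and Slc5a1 were lower in ileal-type cells. Markers of transit amplifying cells summed to 703, 793, 973 and 310 CPM in ileal-type cells. In proximal-type cells they summed to 348, 359, 370 and 349 CPM, and their part in the differences between the types was not tested.

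**Figure D3:**
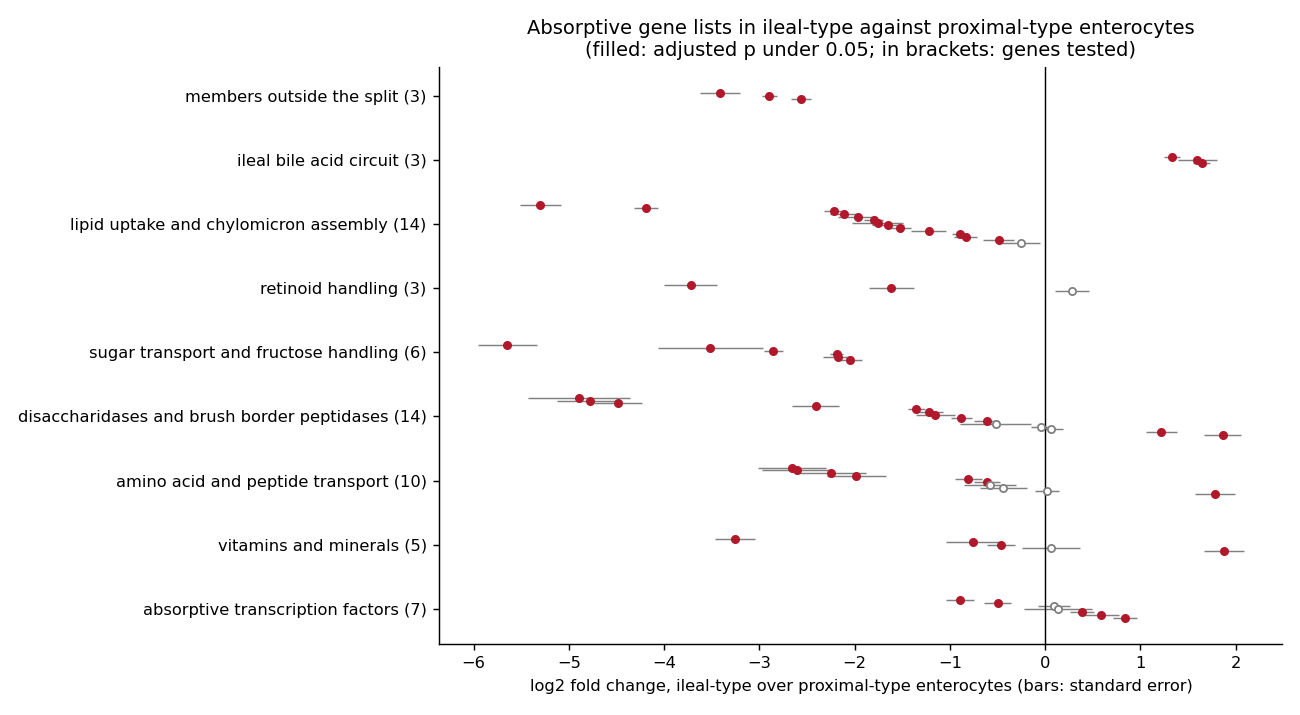
Log2 fold change of ileal-type over proximal-type enterocytes (horizontal axis, bars are standard errors) for the 3 members outside the split and for the genes of 8 pathway lists, 1 point per gene, filled where the adjusted p passed. The bile acid circuit lies at 1.33 to 1.64, the sugar genes at -5.65 to -2.05, and the transcription factors on either side of 0.

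Across all other genes the largest rises in ileal-type cells were those of Saa1, an acute phase protein (3.08 ± 2.42 against 266 ± 198 CPM, SD, n = 4), Ddah1, Fgfbp1, 1810065E05Rik, Tmigd1, Ly6a, Duoxa2 and Gsdmc2, at 6.20 to 3.39 on the log2 scale. The largest falls were those of Reg1 (3766 ± 487 against 46.0 ± 44.7 CPM), Cyp2b10, Cyp2c66, Gm766, Slc2a2, Creb3l3, Gstm3 and Treh, at -6.42 to -4.89. Reg1 codes for a secreted C-type lectin and Gstm3 for a glutathione S-transferase. Saa1 and Reg1 varied between libraries in ileal-type cells with an SD near the size of the mean. Cyp2b10, Cyp2c66, Gm766, Slc2a2 and Treh had 1 to 4 UMIs in ileal-type cells, so the size of their falls rests on few counts.

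Within proximal-type cells the members varied from cell to cell over a wide range. Fabp1 had a median of 10019 CPM with a 5th percentile of 1262 and a 95th of 42835 CPM over the 648 cells. With each cell thinned to 2000 UMIs, the Spearman correlation between cells of a library was 0.74 to 0.84 for Fabp1 and Rbp2, 0.61 to 0.72 for Fabp1 and Apoa4 and 0.58 to 0.65 for Fabp1 and Fabp2. It was 0.37 to 0.52 for Fabp1 and Apoa1 and 0.17 to 0.22 for Fabp1 and Sis. The values describe 86 to 245 cells per library, which share a library and its depth, and with counts as sparse as those of Sis a weak correlation is no finding. All these genes were in the member sum that chose the enterocytes, and Fabp1, Apoa1, Apoa4 and Rbp2 also set the types. That choice shapes in part how they vary together.

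Over 49 sums of cluster by library, the genes most like each member in log2 level gave Pearson correlations of 0.93 to 0.98. Apoa1 and Apoa4 were nearest to each other (0.98), and the gene nearest to Rbp2 was Sis (0.98). Mep1b and Cst6 lay nearest to Fabp1 (0.98 each), Pla2g12b nearest to Sis, Slc51b nearest to Alpi, and Slc51a nearest to Fabp6 (0.98 each). Treh lay nearest to Slc10a2 (0.96), a gene with so few counts that its value rests mainly on the enterocyte sums. Fabp2 stood apart, with S100a10 as its nearest at 0.94. The sums share libraries and clusters, so these values describe likeness and carry no test. Cluster 10 held 625 proximal-type and 175 ileal-type cells, so likeness over these sums does not tell the types apart. In ileal-type cells Treh was lower (-4.89), though most Slc10a2 UMIs of the enterocytes lay there. Slc51b was higher there (1.64) and Alpi lower (-3.41), while Slc51a was higher (1.33), as was Fabp6.

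Outside the enterocytes the members were found in every class, at a low level. The classes were clusters named from markers: 8106 Paneth-like, 10289 goblet-like, 3727 transit amplifying (TA)-like, 327 tuft-like and 233 enteroendocrine-like cells, with 2078 cells left unnamed. Cells that met the enterocyte rule were not taken out of these clusters, so a class can hold a few of them. Fabp1 stood at 285, 298, 160 and 190 CPM in Paneth-like, 224, 236, 134 and 158 CPM in goblet-like and 212, 242, 163 and 176 CPM in TA-like cells. In Paneth-like cells that is 1.38 to 3.25% of its level in the enterocytes of the same library. These 3 classes lay close to each other within a library and far under the enterocytes, at levels of the same order as that of Fabp1 in ileal-type cells.

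In Paneth-like cells Apoa1 had 388, 348, 166 and 206 CPM, Apoa4 22.9 to 57.8 CPM and Rbp2 197, 190, 112 and 124 CPM. Sis (15.9, 14.8, 6.60 and 7.71 CPM) and Alpi (3.78, 3.68, 2.32 and 3.11 CPM) were at 1.37 to 4.51% of their enterocyte levels there. The level of Sis in ileal-type cells (105 to 138 CPM) lay above its level in Paneth-like cells. Fabp6 stood at 251, 206, 148 and 196 CPM in Paneth-like and 194, 177, 139 and 170 CPM in goblet-like cells. Slc10a2 was at 0.28 CPM or less in Paneth-like cells.

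A few values stood out from this low level. Fabp2 kept 697, 636, 498 and 440 CPM in goblet-like and 605, 578, 562 and 513 CPM in TA-like cells, 12.5 to 21.1% and 14.6 to 18.4% of its enterocyte level, against 236, 213, 144 and 158 CPM in Paneth-like cells. It was highest outside the enterocyte-like clusters in goblet-like cluster 3 (1131, 1196, 795 and 743 CPM) and TA-like cluster 9 (948, 909, 726 and 653 CPM). Rbp2 reached 397, 297, 748 and 587 CPM in enteroendocrine-like cells. Fabp6 reached 763, 600, 1984 and 1574 CPM in enterocyte-like cluster 12, which has 566 cells of which 33 met the enterocyte rule.

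Most Paneth-like cells held a UMI of Fabp1, which is read here against the depth of those cells. A UMI of Fabp1 was found in 95.2, 98.3, 87.2 and 92.8% of enterocytes, at a median of 10650, 11247, 5384 and 7387 UMIs, and in 99.6, 99.9, 82.6 and 94.9% of Paneth-like cells, at a median of 47129, 54167, 12370 and 19794 UMIs. With each cell thinned to 2000 UMIs the shares were 80.7, 82.9, 78.9 and 80.8% in enterocytes and 43.1, 44.2, 27.8 and 30.0% in Paneth-like cells. Share with a UMI therefore did not separate the classes before thinning, and the level did.

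The UMIs of Fabp1 in Paneth-like cells grew with the total of the cell. With the Paneth-like cells of a library ordered by total UMIs and put in 4 groups of like number, Fabp1 rose from 6.25 to 20.8 UMIs per cell in fl/fl replicate 1, but as a level it stayed at 276 to 289 CPM. It stayed at 293 to 302, 151 to 164 and 183 to 193 CPM in the other libraries. Fabp6 behaved alike, at 243 to 254, 201 to 209, 137 to 156 and 189 to 201 CPM. In Paneth-like cells the level thus moved less with the total of the cell than it differed between the lowest and the highest library. It moved more in other classes: Fabp1 ran from 182 to 265 CPM over the groups of goblet-like cells of fl/fl replicate 1, and Fabp6 from 138 to 265 CPM over those of TA-like cells of IEC-KO replicate 1. In that library TA-like cluster 8 held 10 cells that met the enterocyte rule, and their part in the Fabp6 values was not tested.

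**Figure D4:**
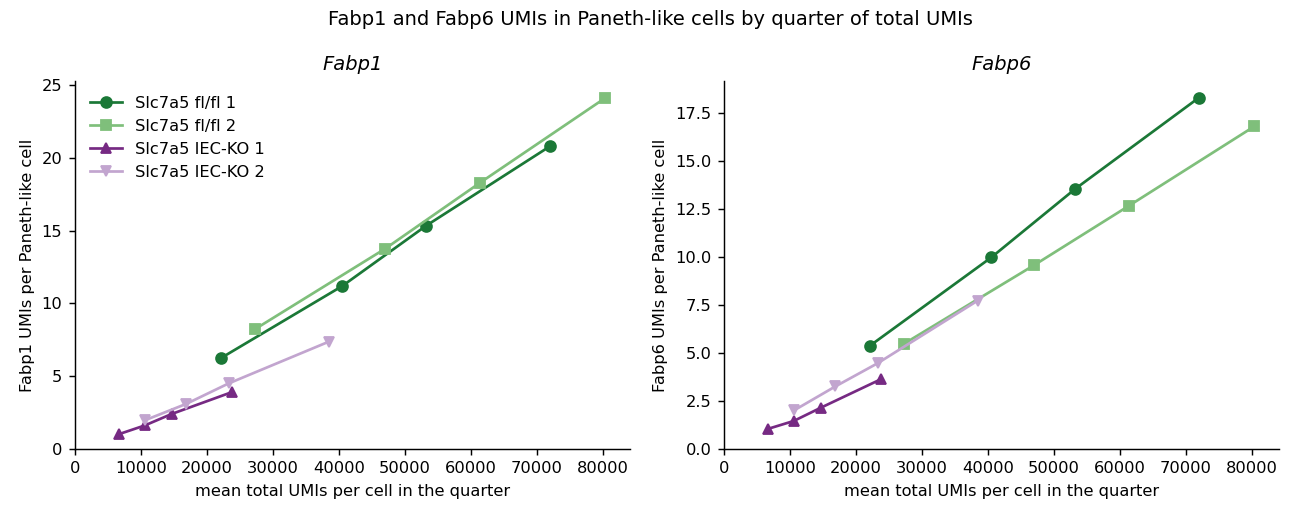
UMIs of Fabp1 and of Fabp6 per Paneth-like cell (vertical axis) against mean total UMIs per cell (horizontal axis) in 4 groups of like number by total, 1 line per library. The lines rise with the total, for Fabp1 from 6.25 to 20.8 UMIs in fl/fl replicate 1 and from 1.00 to 3.90 UMIs in IEC-KO replicate 1.

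The members' ratios to each other outside the enterocytes were near those inside for some genes only. Per 100 UMIs of Fabp1 there were 67.8 to 73.6 of Rbp2 in enterocytes and 63.6 to 69.9 in Paneth-like cells. For Fabp6 the ranges were 53.7 to 86.6 and 69.1 to 103. For Apoa1 they were 79.6 to 103 and 104 to 136, and for Apoa4 9.57 to 11.9 and 14.3 to 20.3. For Fabp2 they were 30.1 to 37.6 in enterocytes, 71.6 to 89.9 in Paneth-like and 270 to 373 in goblet-like cells. Fabp2 in those classes, and Apoa1 and Apoa4 in Paneth-like cells, thus exceeded what the enterocyte ratio would give. Apoa1 and Apoa4 did so in goblet-like cells too, at 108 to 127 and 15.2 to 18.4. Within each library Fabp6 also exceeded it in Paneth-like cells, at 88.1, 69.1, 92.7 and 103 against 86.6, 61.7, 53.7 and 66.3 in enterocytes.

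The members took 0.206, 0.188, 0.194 and 0.180% of all UMIs of a library, and 0.153, 0.141, 0.104 and 0.114% of the UMIs of cells that were not enterocytes. Of the members' own UMIs 26.5, 25.7, 48.0 and 37.6% lay in enterocytes and 54.5, 57.1, 14.4 and 18.8% in Paneth-like cells. Paneth-like cells were 1887, 1789, 2322 and 2108 of the 3633, 3217, 10004 and 9644 barcodes. These shares take no account of the part of all UMIs that those cells held. In all 4 libraries most of the members' summed UMIs thus lay outside the enterocytes, which did not hold for each gene. In IEC-KO replicate 1 enterocytes held 61.3% of the UMIs of Fabp1, 58.3% of Rbp2, 54.6% of Apoa1, 52.7% of Apoa4 and 50.9% of Sis. Fabp2, Alpi, Fabp6 and Slc10a2 were at 20.3 to 46.2% there. In fl/fl replicate 1 enterocytes held 53.7% of the 41 UMIs of Slc10a2. Counted over UMIs outside alpha-defensins, the members took 0.383, 0.390, 0.147 and 0.170% in the cells that were not enterocytes.

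Whether the genotypes differed was asked first in enterocytes. Of 7773 genes tested 1.72% passed (0.502% lower in the IEC-KO libraries), and of the 9 members 1 passed. Sis was lower by 0.48 ± 0.09 (SE) on the log2 scale, or 1.39 times (95% interval -0.67 to -0.29, edgeR adjusted p = 0.0043), from 652 ± 42.2 to 467 ± 19.6 CPM (SD, n = 2). The adjusted p was 0.198 without fl/fl replicate 1 (-0.41), 0.0512 with DESeq2 and 0.0529 with cells thinned to 2000 UMIs. Paneth markers summed to 74216, 78915, 47589 and 68475 CPM in these cells and goblet markers to 40153, 34984, 35877 and 48356 CPM. Of 15 Paneth markers tested 9 were lower and 2 were higher, and of 20 enterocyte markers 3 were lower and 1 was higher. Of 19 goblet markers tested 5 were higher and none was lower, and 2 of 10 enteroendocrine markers, Gip and Pyy, were higher. Their part in the difference was not tested.

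The other members moved by less. Fabp6 was at -0.19 (95% interval -0.37 to -0.00, edgeR adjusted p = 0.433) and Alpi at 0.29 (0.02 to 0.56, adjusted p = 0.374). Fabp1 (0.10, interval -0.12 to 0.31), Fabp2 (0.11), Rbp2 (0.11), Apoa1 (-0.01) and Apoa4 (-0.00) had intervals within 0.4 of 0 on either side, and that of Slc10a2 ran from -0.86 to 0.48. The median of the 9 members was -0.00, as over all genes tested.

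The members set which cells count as enterocytes, so the comparison was repeated over the 1738 cells of the enterocyte-like clusters, which were built without them. There 2.89% of 9309 genes passed (0.892% lower), and Sis was again the only member called, at -0.58 ± 0.10 (edgeR adjusted p = 5.2e-04). Scaled by library size only it was at -0.32 (adjusted p = 0.139), with the median of all genes at 0.24, and without fl/fl replicate 1 its adjusted p was 0.0809. By library size only Alpi passed instead, at 0.42 (edgeR adjusted p = 0.0495). Paneth markers summed to 225460, 269739, 105007 and 140729 CPM in these clusters, and their part in the difference was not tested.

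Among the other pathway genes in enterocytes 2 passed, both lower, beside 1.72% of all genes. Mgam, maltase-glucoamylase, stood at 292, 291, 232 and 206 TMM-scaled CPM (-0.41 ± 0.10, edgeR adjusted p = 0.039), 1 of 14 brush border enzymes tested. Slc5a1, the sodium-glucose cotransporter, stood at 296, 339, 208 and 224 TMM-scaled CPM (-0.56 ± 0.10, adjusted p = 0.0029), 1 of 6 genes of sugar transport. Both genes passed over the enterocyte-like clusters too (-0.41 and -0.55). None of 16 lipid, 4 retinoid, 11 amino acid, 4 bile acid, 5 vitamin and mineral genes or 8 transcription factors tested passed. Of the region lists none of 24 proximal and 2 of 23 distal genes passed (Tmigd1 and Clec2h, both lower).

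Within the types, a comparison added after the data were seen, Sis was lower in proximal-type cells (883, 804, 608 and 558 CPM) by 0.53 ± 0.10 (edgeR adjusted p = 0.0064), where 1.32% of 6966 genes passed. Without fl/fl replicate 1 its adjusted p was 0.0676. In ileal-type cells Sis was at 122, 116, 105 and 138 CPM (0.03), where 0.708% of 4235 genes and none of 8 members tested passed. The difference between the types in the genotype effect on Sis was 0.54 (95% interval 0.08 to 1.00, edgeR adjusted p = 0.885), not past the threshold. That test called 2 of 6276 genes (0.0319%), Gip and Xist, with 329 at an unadjusted p under 0.05.

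In Paneth-like cells the low level of the members was lower in the IEC-KO libraries for 8 of 9 genes, where 40.5% of 12406 genes passed and 20.2% were lower. Sis (-1.74), Apoa4 (-1.70) and Apoa1 (-1.64) fell furthest, then Fabp1 (-1.39), Rbp2 (-1.37), Fabp2 (-1.23), Alpi (-1.08) and Fabp6 (-1.06), with SE of 0.08 to 0.13. In all 8 both IEC-KO libraries lay under both fl/fl libraries, which 35.2% of all genes showed. Slc10a2 was at -0.35 (95% interval -1.19 to 0.48). All 8 passed in each of 14 alternatives. The Paneth-like cells of the genotypes lay in different clusters, cluster 1 with 4374 of 4396 cells from the IEC-KO and cluster 2 with 3654 of 3710 from the fl/fl libraries.

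The scale changed the size of these falls and how common a fall was. Scaled by library size only, the median of all genes in Paneth-like cells rose by 0.65, 3.74% of genes were lower, and the 8 members stood at -1.09 to -0.41 and all passed. Paneth markers summed to 620242, 629089, 516083 and 507482 CPM in these cells. With alpha-defensins left out of the total, Fabp1 stood at 924, 1045, 341 and 430 CPM, so the genotypes lay further apart. Over all UMIs, alpha-defensins included, the 20 enterocyte markers moved the other way as a sum, with 4684, 4401, 6932 and 6206 CPM. Their sum was not taken outside alpha-defensins, so it does not compare with those values of Fabp1. The part of each of these in the result was not tested.

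The lists of other absorptive genes were read in Paneth-like cells beside all genes, of which 20.2% were lower. The lists were not counted by library size only, where 3.74% of all genes were lower. Of the pathway lists 16 of 18 lipid genes, 15 of 15 brush border enzymes, 5 of 6 sugar genes, 4 of 4 bile acid genes and 9 of 11 amino acid transporters were lower, and Slc3a2, the partner chain of the Slc7a5 protein, was higher. In retinoid handling 3 of 6 were lower and 1 was higher, and of the vitamin and mineral genes 5 of 7 were lower and 1 was higher. Of 9 transcription factors 2 were lower, 1 was higher and 6 did not pass. Of the region lists 24 of 24 proximal and 23 of 25 distal genes were lower.

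In goblet-like cells 7 of 8 members tested were lower, where 19.9% of 11364 genes passed and 9.63% were lower (3.6% when scaled by library size only). Sis (-1.22), Apoa1 (-1.06), Apoa4 (-1.03), Fabp1 (-0.88), Rbp2 (-0.77), Fabp2 (-0.73) and Fabp6 (-0.48) passed in all 7 alternatives, and Alpi was at -0.38 (edgeR adjusted p = 0.350). The IEC-KO libraries gave 10004 and 9644 of all 26498 barcodes. They gave 2786 of 2948 cells in goblet-like cluster 3, 2309 of 2698 in cluster 4, 1688 of 2551 in cluster 5 and 2072 of 2092 in cluster 6. The IEC-KO part of cluster 5 was thus smaller than that of all barcodes, and in clusters 3, 4 and 6 it was larger. Paneth markers summed to 232650, 260900, 134942 and 164544 CPM in goblet-like cells, and their part in the differences was not tested.

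In TA-like cells 6 of 8 were lower, where 9.15% of 10942 genes passed and 3.84% were lower (1.95% by library size only). Apoa4 (-0.89), Apoa1 (-0.81), Sis (-0.75), Fabp1 (-0.55) and Rbp2 (-0.46) passed in all 6 alternatives. Fabp2 was at -0.26 (edgeR adjusted p = 0.0144), with an adjusted p of 0.240 by library size only, 0.269 without fl/fl replicate 1 and 0.186 without fl/fl replicate 2. Fabp6 was at -0.26 (adjusted p = 0.0634), and passed without IEC-KO replicate 1 (-0.45, adjusted p = 2.41e-09). Alpi was at -0.02. Paneth markers summed to 194280, 209707, 107343 and 113692 CPM in TA-like cells, and their part in the differences was not tested. Nor was that of the 2, 1, 10 and 3 cells of TA-like cluster 8 that met the enterocyte rule.

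**Figure D5:**
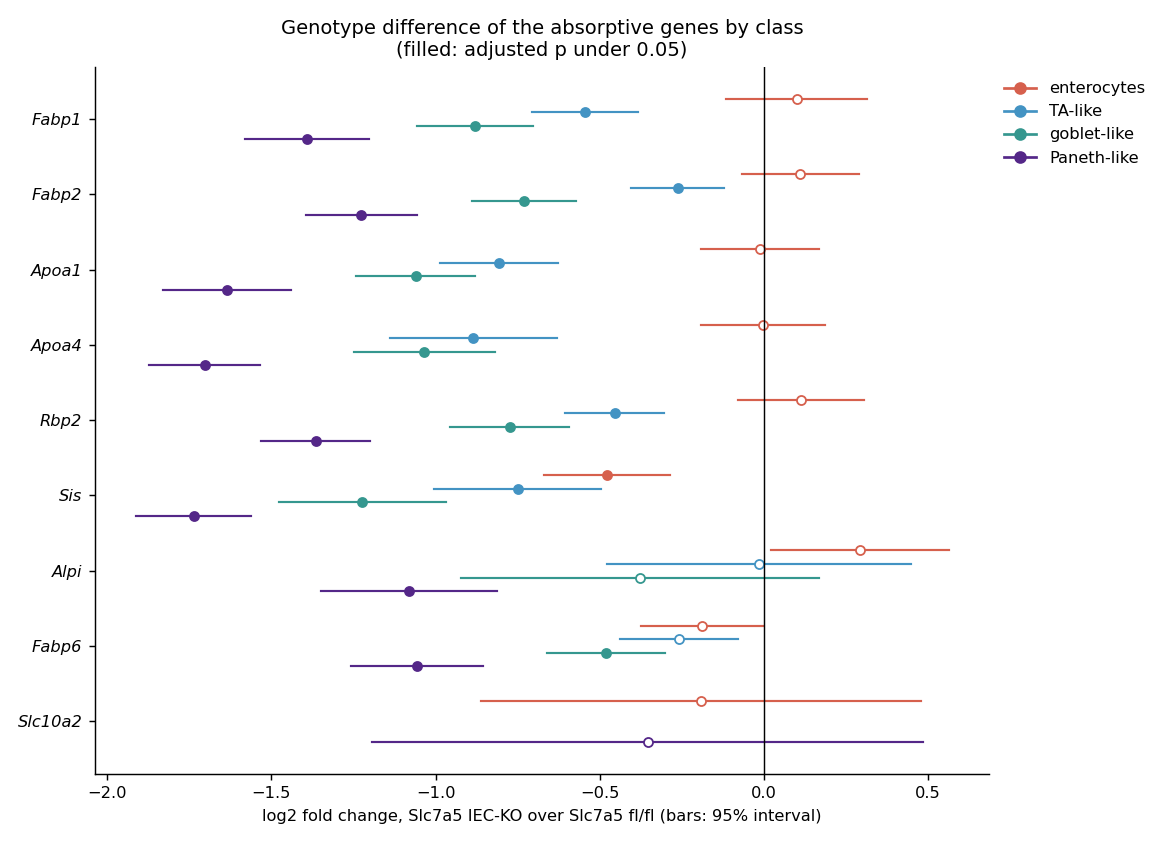
Log2 fold change of Slc7a5 IEC-KO over Slc7a5 fl/fl (horizontal axis, bars are 95% intervals) for each member in enterocytes, TA-like, goblet-like and Paneth-like cells, filled where the adjusted p passed. In enterocytes only Sis is filled, at -0.48, and in Paneth-like cells 8 of 9 are filled, at -1.74 to -1.06.

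That the genotype difference of the members was greater in Paneth-like than in enterocyte-like clusters was tested directly. The difference of the differences passed for 8 of 9 members, where 8.22% of 11587 genes passed and 5.91% were lower (2.01% by library size only). It was largest for Apoa4 (-1.61 ± 0.14, SE), Apoa1 (-1.56 ± 0.16) and Fabp1 (-1.46 ± 0.16), and smallest of the 8 for Fabp6 (-0.98 ± 0.14). Slc10a2 was at -0.27 (95% interval -1.31 to 0.76). The 8 passed in all 5 alternatives, at -1.15 to -0.52 when scaled by library size only.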

How the data were processed

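The authors deposited UMI counts per gene and cell barcode for each library, unnormalized. The submitters' processing notes name Cell Ranger 2.1.1 and the build mm10. The members, lists and rules were chosen with earlier results of these data known. All 26498 barcodes were kept (at least 200 genes) and doublets were kept. On log counts per 10000 UMIs of a cell, Leiden clusters (scanpy 1.11.5, 2000 variable genes, 30 components, 20 neighbours, resolution 1) were built without the members and without the genes of the study's supplementary gene lists, 874 genes in all. A marker counted where it had a UMI in 25% of a cluster's cells and 1.5 times the mean elsewhere (pseudocount 0.1). A cluster took the class with the most markers among its 10 leading genes, where at least 3 markers of that class counted. Goblet-like clusters 5 and 6 had 1 goblet marker among those 10 genes. Goblet-like cluster 4 had 2, with 3 of 20 goblet markers counted. Cluster 7 had none among its 10 and was left unnamed.

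Counts were summed per library and class and tested with edgeR 4.0.16 (quasi-likelihood, TMM, filterByExpr, two-sided, Benjamini-Hochberg at 0.05 over all genes tested). CPM is the summed UMIs of a gene per 1000000 UMIs of the class, and SD is between libraries. The ileal-type shares were tested by exact permutation (two-sided), with exact Clopper-Pearson intervals. As alternatives served library size alone as the scale, TMM without alpha-defensin, ribosomal and member genes, other count filters, the replicate number as a block, DESeq2 1.42.0, cells thinned to 2000 UMIs, doublets left out, other limits of the enterocyte rule, and each library left out in turn. The comparisons within each type and goblet-like clusters 3 and 5 alone were chosen after seeing the data. Pathway genes named in the genotype comparison are up to 3 a list that passed and whose genotypes do not overlap. For the types they are the 8 largest rises and falls past the threshold, in the same direction in all 4 libraries and with at least 100 UMIs, and the lists. For likeness they are the 3 genes with the highest correlation of log2(CPM + 10). Scripts were tested on simulated data.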

Additional observations from a re-analysis of the deposited data

Results flagged for a closer look

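The genotype difference of 8 members was not the same in Paneth-like as in enterocyte-like clusters, by a test of the difference itself (edgeR, interaction of class and genotype with library as a block). Taken as the log2 fold change in Paneth-like minus that in enterocyte-like clusters it was -1.46 for Fabp1, -1.26 for Fabp2, -1.56 for Apoa1, -1.61 for Apoa4, -1.44 for Rbp2, -1.22 for Sis, -1.30 for Alpi and -0.98 for Fabp6. Every value passed at an adjusted p under the threshold with all libraries, with each library left out and by library size only. In the Paneth-like cells Paneth markers summed to 620242, 629089, 516083 and 507482 CPM over the 4 libraries, and their part in the difference was not tested.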

How the results depend on the processing

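With 2 libraries a genotype, depth and the unequal lower UMI limits bound every value. Counts of genes called moved with the setting and the cause was not tested. In enterocytes the 134 calls became 216 with no filter, 271 with the replicate block, 45 with DESeq2, 30 with thinned cells, 299 with members at 0.5% of UMIs and 269 over the enterocyte-like clusters, and 76 to 135 with a library left out (76 without fl/fl replicate 1). By library size only, calls rose from 269 to 1183 in enterocyte-like clusters, 5030 to 9372 in Paneth-like cells (2522 higher and 2508 lower became 8908 and 464), 2265 to 3814 in goblet-like (3405 higher), 1001 to 1668 in TA-like (1455 higher) and 952 to 3419 for the difference between Paneth-like and enterocyte-like clusters (3186 higher), with medians of all genes at 0.24, 0.65, 0.22, 0.12 and 0.40. Paneth-like calls were 3117 with DESeq2 and 1403 thinned, and goblet-like calls 1335 over clusters 3 and 5. With a library left out the ranges were 169 to 483 (169 without fl/fl replicate 1, 170 without fl/fl replicate 2, 483 without IEC-KO replicate 1) in enterocyte-like clusters, 3823 to 4615 in Paneth-like, 1212 to 2214 in goblet-like, 528 to 1429 in TA-like cells and 420 to 1331 for that difference, lowest without a fl/fl library. In proximal-type cells the 92 calls became 166 with the block and 109 to 232 with a library left out, in ileal-type cells 30 became 94 and 34 to 102, and the 2 of their difference became 3 to 10.

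The ileal-type share difference of -2.26 percentage points was -0.53 with a limit of 25%, -1.03 with no Defa limit, 0.33 with members at 2%, 3.69 over the enterocyte-like clusters, -4.60 above a common limit of 9670 UMIs and -1.35 thinned, and -2.75 to -1.77 with a library left out. Above the common limit only 103, 117, 22 and 53 enterocytes remained, so that value rests on few IEC-KO cells.

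Sign changes were confined to member values that had not passed. In enterocytes Fabp2 was -0.029 over the clusters, Apoa1 0.0065 without doublets, 0.013 at a Defa limit of 10% and 0.043 at members of 2%, Apoa4 0.0066 with 10 counts, 0.0065 with no filter, 0.0028 without doublets, 0.039 at the Defa limit of 10% and 0.030 at members of 2%, and Slc10a2 0.013 at the Defa limit of 40% or none. By library size only, Fabp2 was 0.23, Apoa1 0.13, Apoa4 0.11, Fabp6 0.10 and Slc10a2 0.11 in enterocyte-like clusters, Slc10a2 0.29 in Paneth-like cells and 0.19 for the difference, and Alpi 0.10 in TA-like cells (0.0074 with the block). Alpi was 0.019 in goblet-like clusters 3 and 5. With a library left out, enterocyte values ran from -0.057 to 0.28 for Fabp1, -0.048 to 0.029 for Apoa1, -0.081 to 0.076 for Apoa4 and -0.43 to 0.0090 for Slc10a2. In enterocyte-like clusters they ran from -0.20 to 0.20 for Fabp1, -0.12 to 0.058 for Fabp2, -0.30 to 0.012 for Apoa1, -0.32 to 0.0069 for Apoa4, -0.15 to 0.17 for Rbp2 and -0.44 to 0.052 for Slc10a2, and Apoa1 and Apoa4 passed without IEC-KO replicate 1. With a library left out Alpi ran from -0.23 to 0.26 in TA-like cells and Sis from -0.23 to 0.25 in ileal-type cells. Fabp6 ran from -0.69 to 0.075 in proximal-type cells and from -0.13 to 0.45 for the difference between the types. In ileal-type cells Fabp6 was -0.23 without IEC-KO replicate 2. Fabp6 is part of the rule for the types, so its values within them describe cells chosen in part by it.

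The replicate numbers are shared between the genotypes, but same-numbered libraries deviated together only weakly (correlations of 0.02 to 0.17 over genes, 2 pairs), so they were not taken as pairs. With the replicate block Fabp6 passed in TA-like cells (-0.27), and no other member changed its call.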

Other observations

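The rare secretory classes held values of the members that belong in no comparison above, because the fl/fl libraries gave few such cells (25 and 28 tuft-like and 21 and 16 enteroendocrine-like cells, against 88 to 149 in the IEC-KO libraries). Rbp2 stood at 397, 297, 748 and 587 CPM in enteroendocrine-like cells and at 424, 322, 905 and 711 CPM in enteroendocrine-like cluster 14. Sis, the brush border sucrase, stood at 53.0, 28.6, 43.7 and 49.6 CPM in enteroendocrine-like cells, above its 6.60 to 15.9 CPM in Paneth-like cells. Fabp6 had 195, 841, 188 and 260 CPM there, with the high value in the library of 16 cells. Fabp1 in tuft-like cells was uneven, at 662, 274, 488 and 278 CPM. No test was run on these values.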
